A study of Mus musculus with 4 samples.

Results

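The genes described here are the ligands, receptors and intracellular adaptors of the tumour necrosis factor (TNF) superfamily, measured in CD4+CD8+ double-positive thymocytes, the immature thymic T cells that carry both coreceptors. A list of 40 such genes was taken: 14 ligands, 18 receptors and 8 adaptors. Of these, 37 had a probe set that the platform annotation assigns to 1 gene only (13 ligands, 18 receptors and 6 adaptors), among 17097 genes named on the array. Traf3, Ripk1 and Tnfsf12 had none and are not analysed here. Where a gene had several probe sets, the brightest by its mean over all 4 arrays stood for it. Values are log2 signals from RMA (robust multi-array average), which summarises the probes of a set after normalization between arrays.

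The cells were obtained by fluorescence-activated sorting from the thymus of untreated C57BL/6 mice, whose ages were not given in the sources used here. Of the 4 arrays, 2 came from wild-type mice and 2 were labelled hCD2-iCre x Gfi1fl/fl, mice in which both copies of Gfi1 are floxed and the iCre recombinase is driven by human CD2 sequences, which are active in lymphoid cells. Gfi1 encodes a zinc-finger transcriptional repressor. The labels do not say that the wild-type mice carry the recombinase, so an effect of iCre cannot be told apart from one of the floxed gene, and they do not say whether replicates are different animals. The p-values therefore reflect the spread of these 4 samples alone, which may be technical. With 2 arrays per label, the number of arrays limits the precision. The only named Gfi1 probe set read 10.17 and 10.08 on the wild-type arrays and 11.47 and 11.32 on the others, which is higher and not lower with the floxed gene (difference 1.27 ± 0.14 SE; limma, adjusted p = 0.00781, and 0.0501 without wild-type replicate 2). Its place relative to the floxed part is not given in the sources used here, and if it lies outside that part it checks nothing. All directions below are therefore between arrays as labelled, and the arrays labelled hCD2-iCre x Gfi1fl/fl are called the knockout-labelled arrays. Of 9 double-positive markers, 8 were measured (Cd4, Cd8a, Cd8b1, Rag1, Rag2, Cd3e, Cd1d1 and Arpp21), each brighter than the upper quartile on the 4 arrays and none called between the labels (limma, 0 at an unadjusted p under 0.05). The knockout-labelled arrays differed from each other in cell cycle genes: the mean of 19 such genes was 8.17 on replicate 1 and 9.98 on replicate 2, with all 19 higher on replicate 2, against 8.95 and 9.51 on the wild-type replicates.

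TNF superfamily ligands are mostly membrane-bound trimers that cluster their receptors on a neighbouring cell. Receptors with a death domain recruit TRADD and RIPK1 or lead to caspase-8, and the others bind TRAF proteins, which carry the signal to the transcription factor NF-kB and to stress kinases. In the thymus, RANK ligand and the lymphotoxins made by developing T cells and innate lymphoid cells drive the maturation of medullary epithelium, and CD27, OX40, 4-1BB and GITR act as costimulatory receptors on maturing T cells and regulatory T cell precursors.

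Of the 37 measured genes, 5 rose on the knockout-labelled arrays and none fell: the ligands Lta and Tnfsf11, the receptors Tnfrsf25 and Tnfrsf19, and the adaptor Traf5 (limma, Benjamini-Hochberg adjusted p of at most 0.05 over all 17097 genes, which is what "called" means below). That is 13.5% of them, where 1.11% of all genes were called (0.942% higher and 0.170% lower). The genes were listed with earlier results of these data known, so this share is a description of the list. At an unadjusted p under 0.05 there were 7 (18.9%), 6 of them higher, beside 8.29% of all genes. The other 32 genes were not called, and their differences ran from -0.85 to 0.65 on the log2 scale. Over all 37 genes the median difference was 0.02, beside -0.02 over all genes, and 19 of the 37 differences lay above 0. The 5 genes that rose were the only ones of the 37 with a difference of at least 1 in size, a size that 2.42% of all genes reached. The labels' values did not overlap for 18 of the 37 genes, 12 higher and 6 lower (48.6%), where 34.5% of all genes did not overlap (16.0% higher and 18.5% lower).

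The upstream sequences of the 5 genes that rose are shown because these genes moved together between the labels. They are the 250 bases before the transcript start in RefSeq, build GRCm38.p6, written 5′ to 3′ on the gene's strand. The windows are chr17:35205352-35205601 (minus strand) for Lta, chr14:78308044-78308293 (minus) for Tnfsf11, chr4:152115684-152115933 (plus) for Tnfrsf25, chr14:61046856-61047105 (minus) for Tnfrsf19 and chr1:192092600-192092849 (minus) for Traf5. Where RefSeq gave several starts (Tnfrsf25 and Tnfrsf19), the most upstream one is shown. Capitals mark matches to GGGNNNNNCC, the outline of an NF-kB site, searched on both strands. Matches on both strands that overlap by all but 1 base are printed as 1 run of capitals.
Lta: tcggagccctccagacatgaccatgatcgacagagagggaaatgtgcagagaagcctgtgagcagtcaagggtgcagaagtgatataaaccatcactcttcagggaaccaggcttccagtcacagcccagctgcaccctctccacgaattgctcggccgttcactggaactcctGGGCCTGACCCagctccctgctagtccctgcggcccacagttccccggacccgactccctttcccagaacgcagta
Tnfsf11: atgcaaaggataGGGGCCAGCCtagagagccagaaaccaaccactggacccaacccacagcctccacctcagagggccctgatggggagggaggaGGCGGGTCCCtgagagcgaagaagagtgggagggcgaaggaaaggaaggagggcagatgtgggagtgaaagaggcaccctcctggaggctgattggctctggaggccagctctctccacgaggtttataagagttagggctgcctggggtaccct
Tnfrsf25: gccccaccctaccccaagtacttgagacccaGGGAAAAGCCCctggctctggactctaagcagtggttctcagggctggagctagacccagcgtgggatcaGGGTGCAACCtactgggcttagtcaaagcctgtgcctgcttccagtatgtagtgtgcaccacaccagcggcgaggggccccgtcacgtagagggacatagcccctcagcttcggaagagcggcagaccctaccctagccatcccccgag
Tnfrsf19: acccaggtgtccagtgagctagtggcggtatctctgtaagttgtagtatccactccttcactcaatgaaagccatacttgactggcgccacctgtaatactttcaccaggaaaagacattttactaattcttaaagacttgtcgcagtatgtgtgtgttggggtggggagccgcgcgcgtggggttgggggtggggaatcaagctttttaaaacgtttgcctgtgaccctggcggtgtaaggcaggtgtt
Traf5: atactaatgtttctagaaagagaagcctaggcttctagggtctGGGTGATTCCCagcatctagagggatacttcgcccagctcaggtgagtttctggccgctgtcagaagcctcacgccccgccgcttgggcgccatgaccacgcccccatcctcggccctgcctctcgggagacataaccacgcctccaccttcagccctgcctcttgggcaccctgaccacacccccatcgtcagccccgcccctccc

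The NF-kB outline was present in the windows of Lta, Tnfsf11, Tnfrsf25 and Traf5 and in neither of the 2 windows of Tnfrsf19. It was a common outline: 45.8% of 32851 windows of this length held it, as did 23 of the 34 windows (67.6%) of the 30 measured members that had one. In Lta the match began 76 bases before the start, and in Traf5 207 bases before it. In Tnfrsf25 the matches of the window shown began 219 and 149 bases before the start, and in Tnfsf11 238 and 155 bases before it. The GFI1 core with part of its flank, AATCNNNGC, was in none of the windows of these 5 genes. It was in 1 window each of Tnfrsf9 and Traf2, and in 8.87% of all windows. GTAAACA, a FOXO outline searched because the series title names Foxo1, was in none of the 5 genes' windows, in that of Ltb and in 3.17% of all windows. A match describes letters only.

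**Figure D1:**
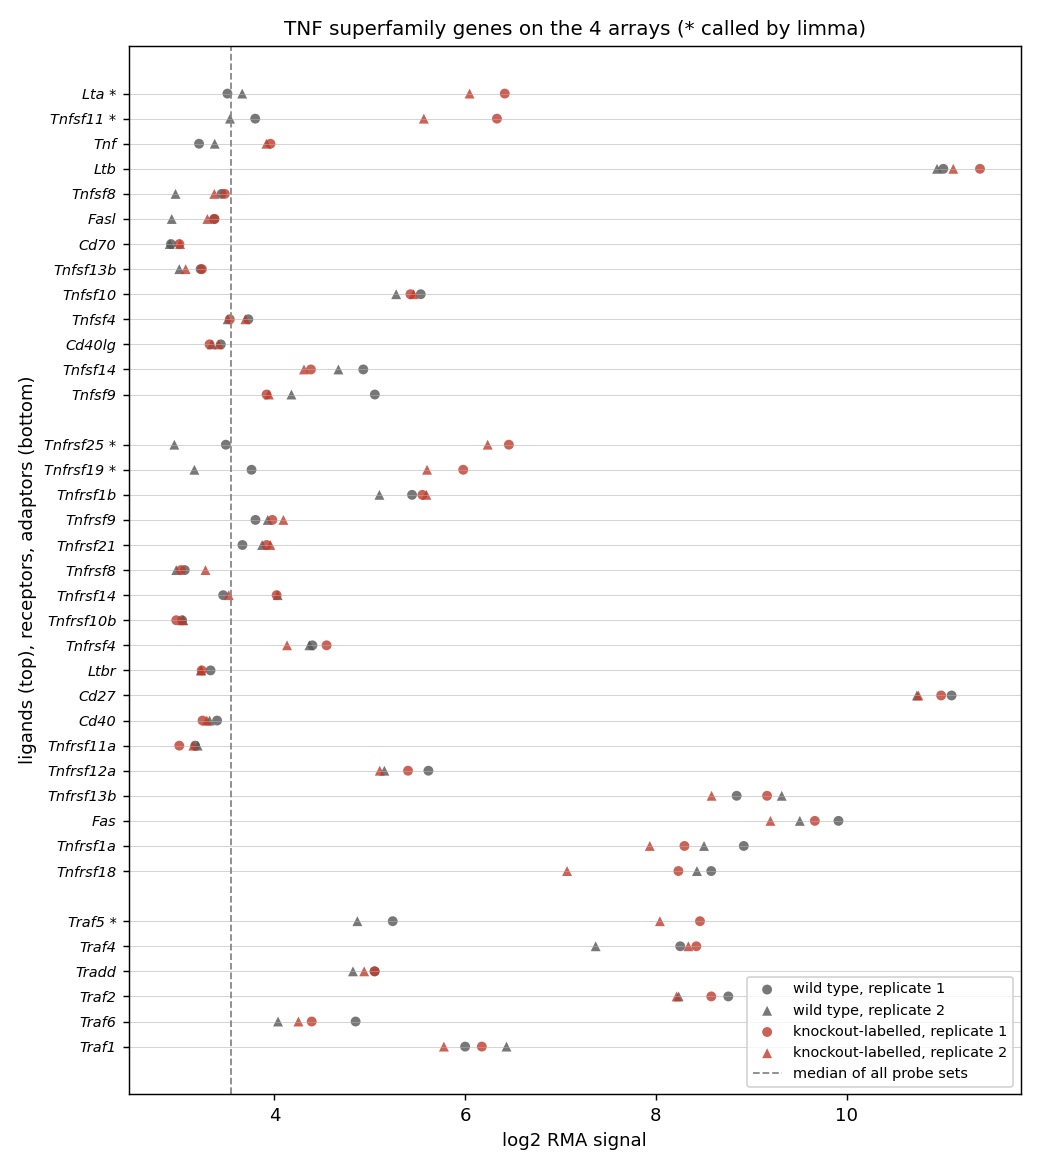
The log2 RMA signal of each of the 37 measured genes on each array (circles for replicate 1, triangles for replicate 2), grouped into ligands, receptors and adaptors and ordered by difference. For Lta, Tnfsf11, Tnfrsf25, Tnfrsf19 and Traf5 both knockout-labelled points lie far above both wild-type points, with differences of 2.28 to 3.20, while in the other rows the differences lie between -0.85 and 0.65.

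Among the ligands, Lta showed the larger rise. It encodes lymphotoxin alpha, which is secreted as a homotrimer that binds the TNF receptors or held at the membrane by lymphotoxin beta. Its signal was 3.51 and 3.66 on the wild-type arrays and 6.42 and 6.05 on the knockout-labelled arrays. Both wild-type values lay near the median of all probe sets, 3.53 to 3.55, and both others stood well clear of them. The difference was 2.65 ± 0.24 (SE) on the log2 scale, a 6.26-fold difference in signal (limma, adjusted p = 0.00387). Where the wild-type value is so near the bottom of the range, a fold compares array signals that include background, not transcript numbers, and the same holds for the other genes that rose except Traf5.

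Lta sits beside Tnf and Ltb on chromosome 17 in the GRCm38.p6 gene table, with no protein-coding gene between Ltb and Tnf or between Tnf and Lta. Tnf, the founding cytokine of the family, read 3.21 and 3.37 against 3.96 and 3.92. The groups did not overlap, but the difference of 0.65 ± 0.14 (SE) did not pass over all genes (limma, adjusted p = 0.129, unadjusted p = 0.00267). Ltb, the membrane anchor of lymphotoxin, was bright on every array, at 11.01 and 10.95 against 11.40 and 11.12. It differed by 0.28, with a 95% interval from -0.06 to 0.61 (limma, adjusted p = 0.743). The 3 neighbours thus had differences of 2.65, 0.65 and 0.28, and only the first passed the test.

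Tnfsf11 encodes RANK ligand, the cytokine of osteoclast and medullary epithelial differentiation. Its signal was 3.80 and 3.53 on the wild-type arrays and 6.33 and 5.57 on the knockout-labelled arrays. It differed by 2.28 ± 0.30 (SE), 4.87-fold (limma, adjusted p = 0.0188), but it did not pass when wild-type replicate 1 or 2 was left out (limma, adjusted p = 0.0683 and 0.104). A second Tnfsf11 probe set, below the array medians throughout, read 2.90 and 2.89 against 3.32 and 3.37 (difference 0.45; limma over all probe sets, adjusted p = 0.160). Tnfrsf11a, which encodes its receptor RANK, was below the array medians on all 4 arrays (3.17 and 3.20 against 3.002 and 3.15) and was not called (limma, adjusted p = 0.956).

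The other ligands were not called. Tnfsf9, the 4-1BB ligand, had the lowest difference among them, with 5.05 and 4.18 on the wild-type arrays and 3.92 and 3.94 on the knockout-labelled ones. The gap between the wild-type arrays, 0.87, was larger than the difference of -0.69 (limma, adjusted p = 0.620). Tnfsf14, which encodes LIGHT, a ligand of HVEM and the lymphotoxin beta receptor, read 4.93 and 4.67 against 4.38 and 4.31 (difference -0.45; limma, adjusted p = 0.672). For both ligands the labels' values did not overlap, with the knockout-labelled arrays lower. Tnfsf10, the death ligand TRAIL, read 5.53 and 5.28 against 5.43 and 5.46, and Tnfsf4, the OX40 ligand, 3.73 and 3.51 against 3.53 and 3.70. Neither showed an order between the labels, and the sign of both differences turned with the setting. Fasl, the ligand of the death receptor Fas, was at 3.37 and 2.92 against 3.37 and 3.30, and Cd40lg, the T cell helper ligand, at 3.44 and 3.34 against 3.32 and 3.41. Together with Tnfsf8 (CD30 ligand), Tnfsf13b (the B cell survival factor BAFF) and Cd70 (ligand of CD27), these 2 lay below the median of all probe sets on every array. For Fasl this holds for the probe set used. Its other one read 2.96 and 2.82 against 3.58 and 3.28, with no overlap and above the array median on knockout-labelled replicate 1 (difference 0.54; limma over all probe sets, adjusted p = 0.213, unadjusted p = 0.00501), and the mean of both differed by 0.37 (limma, adjusted p = 0.490). A fall of any of these 5 was not detectable at such signals.

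Among the receptors, Tnfrsf25 showed the largest rise. It encodes death receptor 3, a death-domain receptor of T cells for the cytokine TL1A. It read 3.49 and 2.95 on the wild-type arrays and 6.46 and 6.24 on the knockout-labelled ones. Its values were around or below the array median under one label and far above it under the other, a difference of 3.13 ± 0.26 (SE), 8.73-fold (limma, adjusted p = 0.00269). Tnfsf15, the gene of its ligand, had no probe set assigned to it alone and was not analysed here. Tnfrsf19, which encodes TROY, a receptor better known from epithelium and the nervous system, read 3.76 and 3.16 against 5.98 and 5.60. It differed by 2.33 ± 0.28 (SE), 5.03-fold (limma, adjusted p = 0.0124), but not without wild-type replicate 2 (adjusted p = 0.0688).

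The rise of Tnfrsf19 was seen with 1 of its 3 probe sets. The other 2 differed by 0.32 and 0.03, and neither was called (limma over all probe sets, adjusted p = 0.669 and 1). One of them, at 3.42 and 3.16 against 3.59 and 3.64, was near the array medians, and the other was below them on all 4 arrays. With the mean of the 3 probe sets the gene differed by 0.90 and was not called (limma, adjusted p = 0.0849). Lta, Tnfrsf25 and Traf5 had 1 probe set each, so their differences had no such check. In the fit over all probe sets the same 5 of 59 member probe sets were called, and 0 of the 22 others, 4 of which had an unadjusted p under 0.05.

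**Figure D2:**
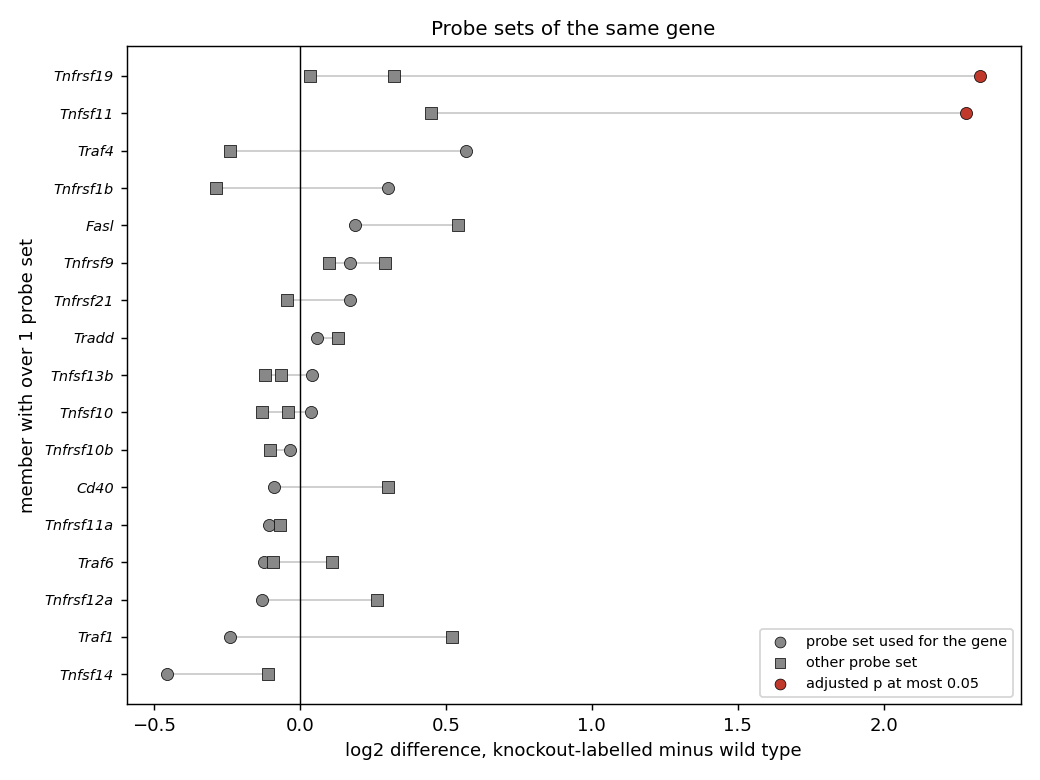
The log2 difference, knockout-labelled minus wild type, of every probe set of the 17 genes with over 1 probe set, with circles for the probe set used and squares for the others. Only the circles of Tnfrsf19 (2.33) and Tnfsf11 (2.28) are red, that is, called, and the squares of these genes lie between 0.03 and 0.45.

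None of the receptors with bright signals was called. Cd27, the costimulatory receptor carried by most thymocytes, read 11.10 and 10.74 against 10.99 and 10.75, a difference of -0.05 with a 95% interval from -0.45 to 0.36 (limma, adjusted p = 1). Fas, the death receptor of thymocytes, read 9.91 and 9.51 against 9.67 and 9.20, and Tnfrsf13b, which encodes TACI, a receptor for BAFF and APRIL, 8.85 and 9.32 against 9.17 and 8.58. In these 3 genes the labels' values overlapped. Tnfrsf1a, the ubiquitous TNF receptor 1, was lower on both knockout-labelled arrays, at 8.30 and 7.94 against 8.92 and 8.50. Its difference of -0.60 ± 0.24 (SE) did not pass over all genes (limma, adjusted p = 0.560, unadjusted p = 0.0421).

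Tnfrsf18, which encodes the costimulatory receptor GITR, separated the knockout-labelled arrays from each other. It read 8.24 on replicate 1 and 7.07 on replicate 2, a gap of 1.17, while the wild-type arrays read 8.58 and 8.43. Both knockout-labelled values lay below both wild-type ones, yet the difference of -0.85 ± 0.37 (SE) was not called (limma, adjusted p = 0.627). Without knockout-labelled replicate 1 it was -1.44 and was called (limma, adjusted p = 0.00458), and without replicate 2 it was -0.27 (adjusted p = 0.981). In a fit chosen after seeing the data, with the mean of the 19 cell cycle genes as a covariate, it was -0.95 (adjusted p = 0.0333). Over all alternatives its adjusted p ran from 0.00458 to 0.981. Replicate 2 was the array with the higher cell cycle signal, and the part of that signal in the result was not tested. Tnfrsf4 (OX40), the neighbour of Tnfrsf18 on chromosome 4 with no protein-coding gene between them, read 4.40 and 4.37 against 4.55 and 4.13, with no order between the labels.

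The remaining receptors gave no call. Tnfrsf1b (TNF receptor 2) read 5.44 and 5.10 against 5.55 and 5.59, a difference of 0.30 from the probe set used and of -0.29 from a second one (limma over all probe sets, adjusted p = 0.911 and 0.865). Tnfrsf9 (4-1BB) read 3.80 and 3.93 against 3.98 and 4.09, so that the labels' values did not overlap, but the difference of 0.17 was not called (limma, adjusted p = 0.954). Its other probe sets, below the array medians throughout, differed by 0.10 and 0.29 (limma over all probe sets, adjusted p = 0.957 and 0.371, unadjusted p = 0.392 and 0.0141). Ltbr, the receptor of membrane lymphotoxin and of LIGHT, read 3.33 and 3.23 against 3.24 and 3.23. With Tnfrsf8 (CD30), Tnfrsf10b (the TRAIL receptor), Tnfrsf11a and Cd40, it belonged to the 5 receptors below the array medians throughout. The Cd40 probe set used differed by -0.09 and its other one, also below the medians on every array, by 0.30 (limma over all probe sets, adjusted p = 0.979 and 0.492, unadjusted p = 0.469 and 0.0265). Tnfrsf12a (the receptor of TWEAK), Tnfrsf14 (HVEM) and Tnfrsf21 (death receptor 6) differed by -0.13, 0.02 and 0.17. Altogether 10 of the 37 genes lay below the median on all 4 arrays, as did 6845 of the 17097 genes.

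Among the adaptors only Traf5 rose. It encodes TNF receptor associated factor 5, which binds CD27, CD30, OX40, HVEM and the lymphotoxin beta receptor. Its signal went from 5.24 and 4.87 to 8.46 and 8.04, the largest difference of the 37 genes. This was 3.20 ± 0.27 (SE), 9.17-fold (limma, adjusted p = 0.00284), from wild-type values that were already above the array medians. None of the genes of these receptors was called: Cd27, Tnfrsf8, Tnfrsf4, Tnfrsf14 and Ltbr differed by -0.05 to 0.13, Tnfrsf8 and Ltbr from signals below the array medians.

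The other adaptors were not called. Traf1, an NF-kB induced TRAF, read 6.00 and 6.43 against 6.17 and 5.78, and its second probe set differed by 0.52 where the first differed by -0.24 (neither called by limma). Traf2, the main partner of TNF receptor 2 and TRADD, read 8.76 and 8.24 against 8.58 and 8.22. Traf4, another gene of the TRAF family, read 8.26 and 7.37 against 8.42 and 8.34, so that the difference of 0.57 was smaller than the gap of 0.89 between the wild-type arrays (limma, adjusted p = 0.781). It was 1.01 without wild-type replicate 1 and 0.13 without replicate 2, and a second Traf4 probe set differed by -0.24, the mean of both by 0.16 (none called by limma). Traf6, used by CD40, RANK and Toll-like receptors, differed by -0.12 and Tradd, the death-domain adaptor of TNF receptor 1 and death receptor 3, by 0.06. Death receptor 3 and its adaptor thus had differences of 3.13 and 0.06.

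**Figure D3:**
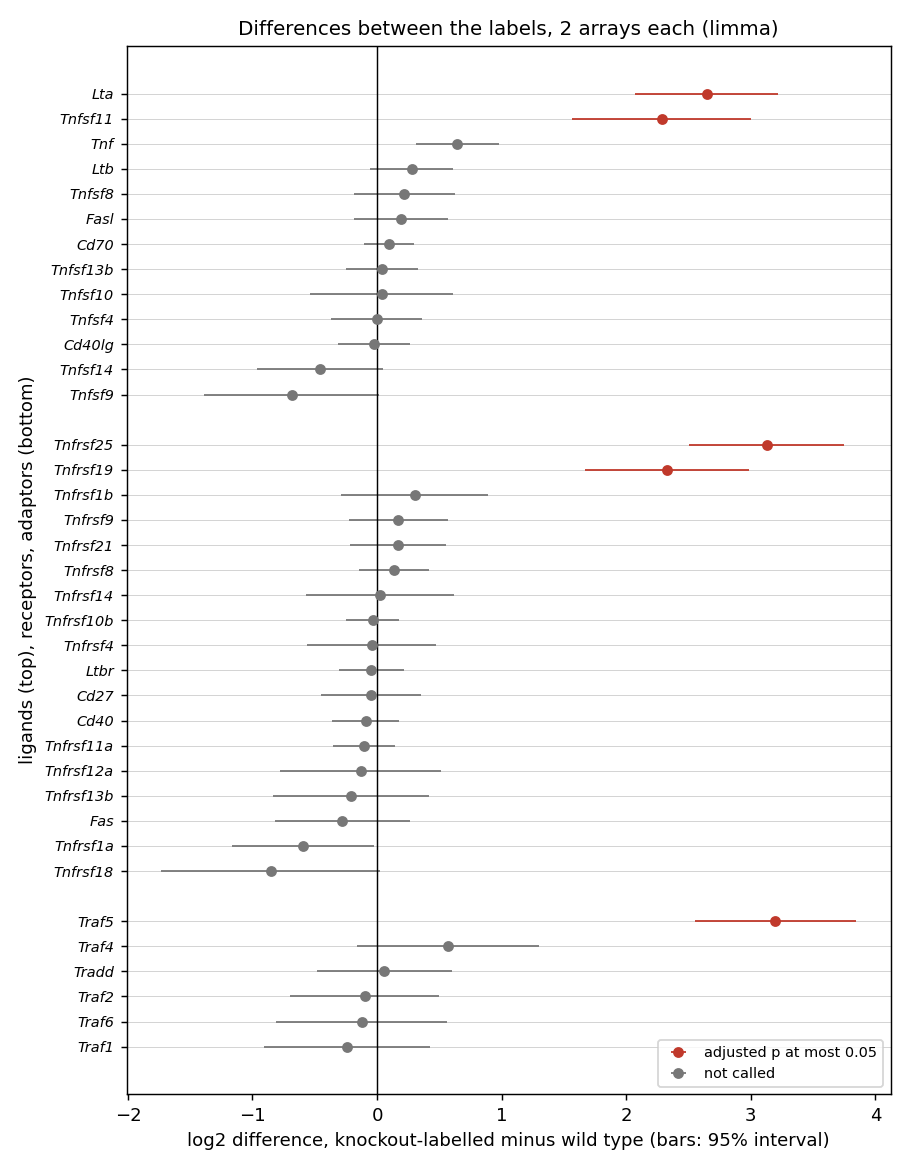
The log2 difference between the labels for the 37 genes, with 95% intervals from limma, in red where called. The intervals of the 5 red genes start at 1.57 or above, and those of nearly all others cross 0, the exceptions being Tnf (0.31 to 0.98) and Tnfrsf1a (-1.16 to -0.03).

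Leaving out 1 array at a time changed which genes were called. Lta, Tnfrsf25 and Traf5 were called in all 4 such fits, with adjusted p of at most 0.0305. All 5 read lower on knockout-labelled replicate 2, the array with the higher cell cycle signal, than on replicate 1. That was the more common order: only 12 of the 37 genes and 7387 of all 17097 read higher on replicate 2. With the cell cycle signal as a covariate, a fit chosen after seeing the data, all 5 were called higher. Without wild-type replicate 1, 4 of the 5 genes were called, and without wild-type replicate 2 3 of them were, the losses being those of Tnfsf11 and Tnfrsf19 given above. The prior without an intensity trend also lost Tnfsf11 and Tnfrsf19 (limma, adjusted p = 0.0681 and 0.0518), and an ordinary t statistic, with no prior, called 0 of all 17097 genes. In a fit without an array, the label with 1 array left is assumed to vary like the other.

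The wider pathway was read from 4 lists with 70 different genes, of which 63 were measured. Only Map3k5 was called. It encodes ASK1, a stress kinase that binds TRAF2, and rose from 5.39 and 5.62 to 8.89 and 8.96, by 3.42 ± 0.23 (SE) or 10.7-fold (limma, adjusted p = 0.00103), with both knockout-labelled values far above the wild-type ones. The share called was 1.59%, close to the 1.11% of all genes. The median difference over the 63 genes was 0.06. Map3k5 stood alone in its list of 17 death and kinase adaptors, where Fadd, Casp8 and Cflar, the core of the death-inducing complex, differed by -0.26, 0.23 and -0.22 and Ripk3, the kinase of necroptosis, by 0.44 (limma, adjusted p of at least 0.797).

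None of 20 measured NF-kB signalling genes and none of 17 NF-kB responsive genes was called by limma, with 5 in each list at an unadjusted p under 0.05 (25% and 29.4%, beside 8.29% of all genes). Relb and Nfkb2 are in both lists, so these were 8 different genes, all 8 above 0. In the signalling list Relb and Rel, the genes of 2 NF-kB subunits, had the largest differences. Relb, the partner of p52 in the pathway that follows the lymphotoxin beta receptor and RANK, read 4.34 and 4.196 against 5.73 and 5.45 (difference 1.32 ± 0.23 SE; limma, adjusted p = 0.0601). It passed the threshold in 7 of the 15 other settings, among them without knockout-labelled replicate 2 (adjusted p = 0.00978, in a range from 0.00978 to 0.579 over all settings). Rel read 4.53 and 4.16 against 5.37 and 5.72 (difference 1.202; adjusted p = 0.116), and passed in 2 of the 15 other settings, among them without knockout-labelled replicate 1 (adjusted p = 0.0204, in a range from 0.0204 to 0.694). For both genes the labels' values did not overlap.

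Of the 17 responsive genes 12 lay above 0 (70.6%), as did 14 of the 20 signalling genes (70%), beside 44.6% of all genes. The labels' values did not overlap for 7 responsive genes higher and 1 lower, and for 12 signalling genes higher and 2 lower. Over all genes these shares were 16.0% higher and 18.5% lower. The 2 lists share 5 measured genes and were chosen with earlier results of these data known. Among the responsive genes, Gadd45b, a stress sensor gene, read 6.05 and 5.71 against 7.56 and 6.71 (difference 1.25; limma, adjusted p = 0.230), and was called without knockout-labelled replicate 2 (adjusted p = 0.00479, in a range from 0.00479 to 0.805). Irf1, an interferon-regulated transcription factor gene, read 8.19 and 7.91 against 9.03 and 9.31 (difference 1.12; limma, adjusted p = 0.0794), and Icam1, an adhesion molecule gene, differed by 0.90 (adjusted p = 0.297). In all 3 genes both knockout-labelled values lay above both wild-type ones. Feedback inhibitor genes of the pathway were not called and differed in both directions. Tnfaip3 (A20) differed by -0.0012 and Nfkbia by -0.32 (limma, adjusted p = 1 and 0.808). Of other negative regulator genes, Tnip1, Nfkbie, Tnip2 and Nfkbib differed by 0.52, 0.33, 0.13 and 0.08, and Cyld by -0.43 (limma, adjusted p of at least 0.611). For Tnip1 and Nfkbie both knockout-labelled values lay above both wild-type ones, and for Cyld below them. Nfkbiz and Bcl3, which encode atypical members of the NF-kB inhibitor family, differed by 0.74 and 0.73 and were not called (limma, adjusted p = 0.449 and 0.113). Both belonged to the 8 NF-kB genes above (limma, unadjusted p = 0.0255 and 0.00213). Bcl3 lay below the array medians on 3 of the 4 arrays. Of 15 other superfamily genes none was called. Traf3ip2, the adaptor of interleukin-17 receptors, differed by 1.35 (5.94 and 6.09 against 7.496 and 7.24; limma, adjusted p = 0.0603) and passed in 7 of the 15 other settings (adjusted p from 0.0121, without knockout-labelled replicate 2, to 0.567), and the next largest difference was -0.26 for Ngfr.

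**Figure D4:**
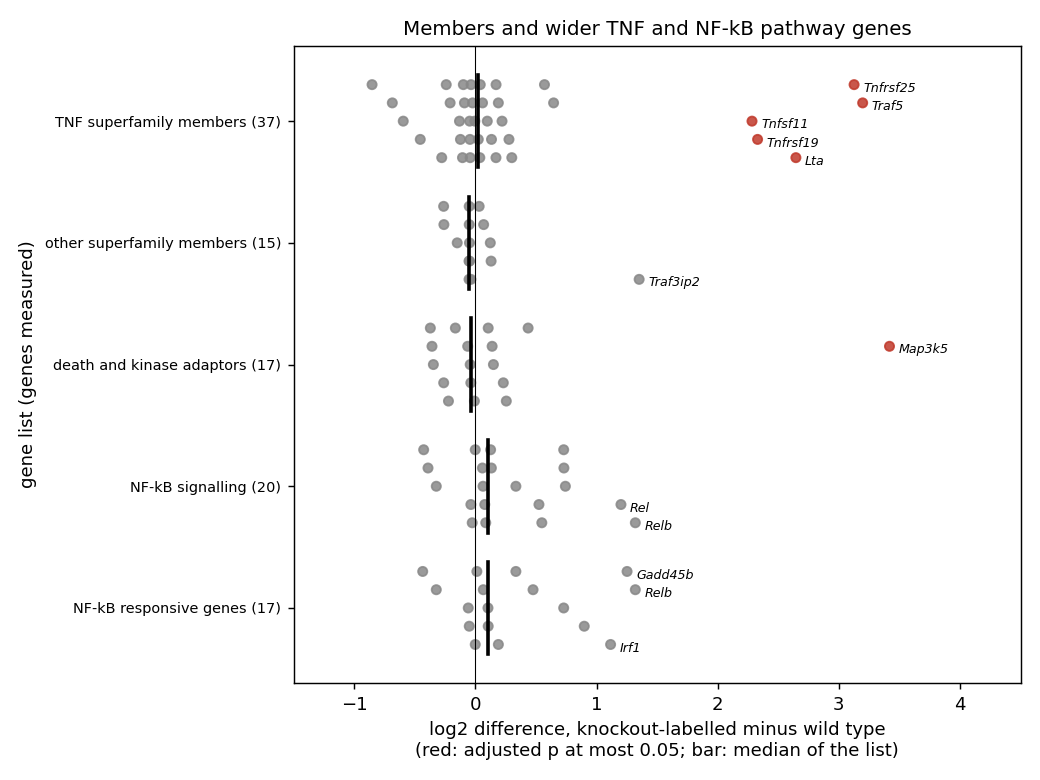
The log2 difference of each measured gene in the TNF superfamily list and the 4 wider lists, with the median of each list as a bar and called genes in red. The bars lie between -0.05 and 0.11, and Map3k5 (3.42) is the only red point outside the superfamily list.

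Markers of other cells were read on the same arrays, since bulk values cannot tell fewer cells of a type from less RNA per cell. Both measured genes of the mature single-positive list rose, Klf2 by 5.20 and S1pr1 by 1.43 (limma, adjusted p = 0.000301 and 0.0361). The S1pr1 call did not hold without wild-type replicate 1 or 2 (limma, adjusted p = 0.0966 and 0.246), with the replicate number as a block (0.0713) or without the intensity trend (0.0548). The mean of these 2 genes was 4.35 and 4.09 on the wild-type arrays and 7.43 and 7.63 on the others. Of 5 regulatory T cell genes, Ctla4 rose by 3.86 (limma, adjusted p = 0.00395) while Foxp3, the defining factor, was below the array medians throughout (3.27 and 3.20 against 3.09 and 3.09). Ikzf2 (Helios), bright throughout, read 9.62 and 9.92 against 10.41 and 10.91, with no overlap (difference 0.89; limma, adjusted p = 0.162, unadjusted p = 0.00390). Il2ra and Ikzf4 differed by 0.19 and 0.26, both with overlap, and Foxp3 by -0.14, none of them called. The list mean was 4.53 and 4.74 against 5.68 and 5.61, a mean in which Ctla4 weighed most. The median difference of the 5 genes was 0.26. The part of these genes' source in the rise of Lta, Tnfsf11, Tnfrsf25, Tnfrsf19 and Traf5 was not tested.

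No gene was called in the other marker lists by limma, and at an unadjusted p under 0.05 there were 2 thymic epithelial, 1 B cell and 1 of the innate lymphoid list. The mean of 8 thymic epithelial and stromal genes was 3.62 and 3.39 on the wild-type arrays and 3.80 and 3.64 on the others, with 6 of the 8 below the array medians throughout, Krt5, Krt8 and Foxn1 among them. The 2 epithelial genes went in opposite directions, each with no overlap. Epcam read 6.89 and 6.06 against 8.63 and 7.69 (difference 1.68, limma adjusted p = 0.163, unadjusted p = 0.00395). Krt8 read 3.22 and 3.21 against 2.84 and 2.98 (difference -0.30, limma adjusted p = 0.384, unadjusted p = 0.0182). Over 7 genes that mark innate lymphoid, NK or gamma-delta T cells the mean was 3.83 and 3.79 against 3.89 and 3.85, with 5 of the 7 below the medians, among them Sox13 and Ncr1. Il17re, above the upper quartile on every array, read 7.73 and 7.66 against 7.68 and 7.16, with overlap. Rora read 3.83 and 3.71 against 4.13 and 4.34, higher on both knockout-labelled arrays (difference 0.47; limma, adjusted p = 0.506, unadjusted p = 0.0326). For 5 B cell genes the mean was 4.28 and 4.10 against 4.07 and 3.81, with Cd79a, Ms4a1 and Pax5 below the medians throughout. The bright gene of that list, Cd79b, read 8.26 and 7.88 against 7.41 and 6.28, lower on both knockout-labelled arrays (difference -1.23; limma, adjusted p = 0.347, unadjusted p = 0.0150). For 8 myeloid and dendritic genes it was 3.53 and 3.34 against 3.39 and 3.51, with 5 of the 8 below the medians. For 4 erythroid and platelet genes it was 4.26 and 4.96 against 4.61 and 4.96, with 3 of the 4 below the medians. The remaining one, Hba-a1, a haemoglobin gene, read 7.35 and 10.17 against 8.72 and 10.45, higher on replicate 2 than on replicate 1 under both labels. The part of these cells in the results above was not tested.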

How the data were processed

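Biotin-labelled RNA of 4 samples was hybridised to 1-colour Affymetrix 3′ arrays, per the labels' protocols. The authors deposited 1 log2 value per probe set, made with RMA in Affymetrix Expression Console 1.1 per the submitters' processing notes. The log2 scale was read from the values, which ran from 2.19 to 13.52 with nearly equal quartiles. RMA compresses differences at both ends of its range. Detection calls were not used here. Of 45037 probe sets, 28898 had 1 gene symbol, 551 had several and 15588 were not listed. Entrez IDs of 28689 matched the RefSeq table (GRCm38.p6), and 0 symbols changed.

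The 2 labels were contrasted in limma 3.58.1 (lmFit, eBayes; R 4.3.3), with an intensity trend, no filter and no covariate, on 17097 genes, two-sided, called at an adjusted p of 0.05. The fit had 2 residual and 5 prior degrees of freedom. Intervals are 95% intervals of that fit. On simulated data with 17097 genes it recovered 94.4% of genes raised by 2. The simulated variances were drawn from the prior of that fit, with independent errors and no floor of signal. The recovery therefore holds under those assumptions only. Figures used matplotlib 3.10.9 in Python 3.11.15. Values were given for called genes, those at an unadjusted p under 0.05, the 5 next largest differences and well-known members, the others in part. The members, lists and named genes were chosen with earlier results of these data known. Alternatives were a replicate block, 2 scalings, filters on the dimmest 30% and 50%, other priors, other uses of probe sets, an ordinary t statistic, leaving out each array and, added later, a cell cycle covariate.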

Additional observations from a re-analysis of the deposited data

How the results depend on the processing

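The 5 called members were called higher under the block, both scalings, the 30% and 50% filters, the robust prior, the fit of all probe sets and the cell cycle covariate. The count was 4 with the mean of all probe sets, 3 without the intensity trend and 0 with an ordinary t statistic, which called 0 of all genes (1219 at an unadjusted p under 0.05, 7 members among them). It ran from 3 to 5 when 1 array was left out. Members called lower were 0, but 1 (Tnfrsf18) with the cell cycle covariate and 0 to 1 when 1 array was left out. Genes called over the whole table were 190, but 483 with the cell cycle covariate and 103 to 475 when 1 array was left out. Wider pathway genes called were 1, but 7 with the cell cycle covariate, 3 with the mean of probe sets, the robust prior or the 50% filter, 2 without the trend, with the second quantile normalization or with the 30% filter, 0 with the ordinary t statistic, and 1 to 5 when 1 array was left out. The filters left 32 and 22 members to test, so those at the lowest signals have no value there. Signs turned only for members that were not called. For Tnfsf4 the difference was 0.0159 with median centring, 0.0020 with the second quantile normalization and 0.0036 with the covariate, and for Tnfrsf14 it was -0.0022 with the covariate. With the mean of probe sets it was -0.045 for Tnfsf10, -0.049 for Tnfsf13b, 0.066 for Tnfrsf12a, 0.11 for Cd40 and 0.14 for Traf1. The causes of these changes were not tested. Leaving out 1 array at a time also turned signs, with differences from -0.11 to 0.10 for Tnfsf4, -0.021 to 0.46 for Tnfsf8, -0.092 to 0.17 for Tnfsf10, -0.072 to 0.15 for Tnfsf13b, -0.032 to 0.41 for Fasl, -0.071 to 0.024 for Cd40lg, -0.25 to 0.16 for Tnfrsf4, -0.36 to 0.099 for Tnfrsf12a. They ran from -0.50 to 0.082 for Tnfrsf13b, -0.26 to 0.31 for Tnfrsf14, -0.095 to 0.0057 for Ltbr, -0.23 to 0.13 for Cd27, -0.36 to 0.16 for Traf2, -0.53 to 0.28 for Traf6 and -0.055 to 0.17 for Tradd. With the replicate number as a block the 5 members were called higher, and 183 genes in all, and among the genes followed under every setting only S1pr1 lost its call (adjusted p = 0.0713). The numbers were not taken to pair the samples, since the labels give them no meaning and the 2 pairs give 1 correlation, 0.301. With 2 arrays a label, differences near 1 were often missed on simulated data for this comparison. A rise of 1 (log2) was recovered in 44% of genes there, under the assumptions of the fitted model. Signals near the bottom of the range limit any fall.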
